A study of Mus musculus with 3 samples.

Results

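Gene expression in G-MDSCs of the blood was compared between a late stage of tumor growth and the stage 1 week before it. The later library came from mice that had carried B16F10 tumors for 3 weeks (3Ws) and the earlier one from mice that had carried them for 2 weeks (2Ws), which makes 2 of the 3 libraries of the study, and the remaining library came from normal mice. A gene was kept when it was protein-coding, lay on an autosome and reached 5 FPKM in 1 of the 2 libraries, and 5303 of the 26655 genes in the values met this rule. FPKM is the number of fragments of a gene scaled to the length of its exons and to the size of the library, so that it can be compared between genes. The mice were C57BL/6J, 8 to 10 weeks old, and B16F10, a melanoma line of the same strain, was implanted under the skin, with no other agent or allele in any group. G-MDSCs were taken as CD11b+Gr1+ cells and separated with a biotinylated antibody to Ly6G on magnetic columns after red cells had been lysed. How many mice were pooled for a library is not given in the sources used here. Some sample labels count the tumor times in months, while the sample descriptions and the study's methods count them in weeks, and weeks are used here.

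Granulocytic myeloid-derived suppressor cells are neutrophils and their immature forms that build up in tumor-bearing hosts and restrain T cells, among other means through arginase, nitric oxide and reactive oxygen. Their production and release are driven largely by the cytokine G-CSF, whose receptor signals through STAT3. Neutrophils carry their proteases and antimicrobial proteins in granules laid down in order during maturation in the bone marrow, the primary granules first and the secondary and tertiary granules later.

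Sex-linked transcripts set the 2 libraries apart. Xist, the RNA of the inactive X chromosome, had no read in the 3Ws library, a count that allows up to 0.00979 FPKM, and 24.7 FPKM in the 2Ws library. Of the genes on the Y chromosome, Ddx3y had 23.1 FPKM in the 3Ws library and no read in the 2Ws library, and Eif2s3y had 36.8 FPKM in the 3Ws library and likewise no read in the 2Ws library. The normal library resembled the 3Ws library in this, with 0.00966 FPKM of Xist and 19.9 FPKM of Ddx3y. The methods name female mice for the implantation, so the 3Ws library goes against that description. Sex and tumor time therefore cannot be told apart in any difference below, and neither can any other feature that the mice of 1 library shared. The library total recovered from the values was 17075753 reads in the 3Ws library and 16549246 reads in the 2Ws library. Reads summed over genes came to 105.7% of that total in the 3Ws library and 105.9% in the 2Ws library. Why they exceeded it was not tested. With 1 library a side the spread between replicates is unknown and no test was run, and the intervals beside folds are exact Clopper-Pearson 95% intervals that cover counting error only.

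The cells carried the defining genes of neutrophils in both libraries. S100a9, a subunit of calprotectin, had 37319 FPKM in the 3Ws library and 27455 FPKM in the 2Ws library, and its partner S100a8 had 14548 FPKM in the 3Ws library and 10195 FPKM in the 2Ws library. Together they made up 16.2% of all FPKM in the 3Ws library and 12.1% in the 2Ws library. Csf3r, the G-CSF receptor, stood at 3271 FPKM in the 3Ws library and 3362 FPKM in the 2Ws library, and Ly6g, the antigen used for the separation, at 190 FPKM in the 3Ws library and 114 FPKM in the 2Ws library. Summed over the 30 genes of the neutrophil identity list, the level was 74820 FPKM in the 3Ws library and 54393 FPKM in the 2Ws library. In bulk RNA, fewer cells of a type and less RNA per cell cannot be told apart.

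Most kept genes changed little between 2Ws and 3Ws. Ratios are log2 ratios of FPKM plus 1, 3Ws over 2Ws, less their median over the 9234 genes that reached 1 FPKM in each library, and are called centred ratios. That median was −0.16, so the typical expressed gene had a slightly lower value in the 3Ws library. A total of 4388 kept genes (82.7%) differed by less than 1.5-fold, and the median centred ratio of the kept genes was 0.03. At least 2-fold higher in the 3Ws library were 122 genes (2.30%), and 244 genes (4.60%) were at least 2-fold lower. Without centring, 92 genes were higher and 321 were lower, and with Actb, a cytoskeletal gene, as the zero point 91 were higher and 328 lower. The higher genes had a median of 34.5 FPKM in the 3Ws library and 12.4 FPKM in the 2Ws library, whereas the lower genes had a median of 3.28 FPKM in the 3Ws library and 13.7 FPKM in the 2Ws library. Just inside the 5 FPKM limit lay Naa30, with 5.002 FPKM as its larger value, and just outside lay Mdc1, with 4.9995 FPKM. At the 2-fold limit, Glipr2 at 1.001 counted as higher and Rufy4 at 0.997 did not, while Ecm1 at −1.003 counted as lower and Crip1 at −0.996 did not.

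**Figure D1:**
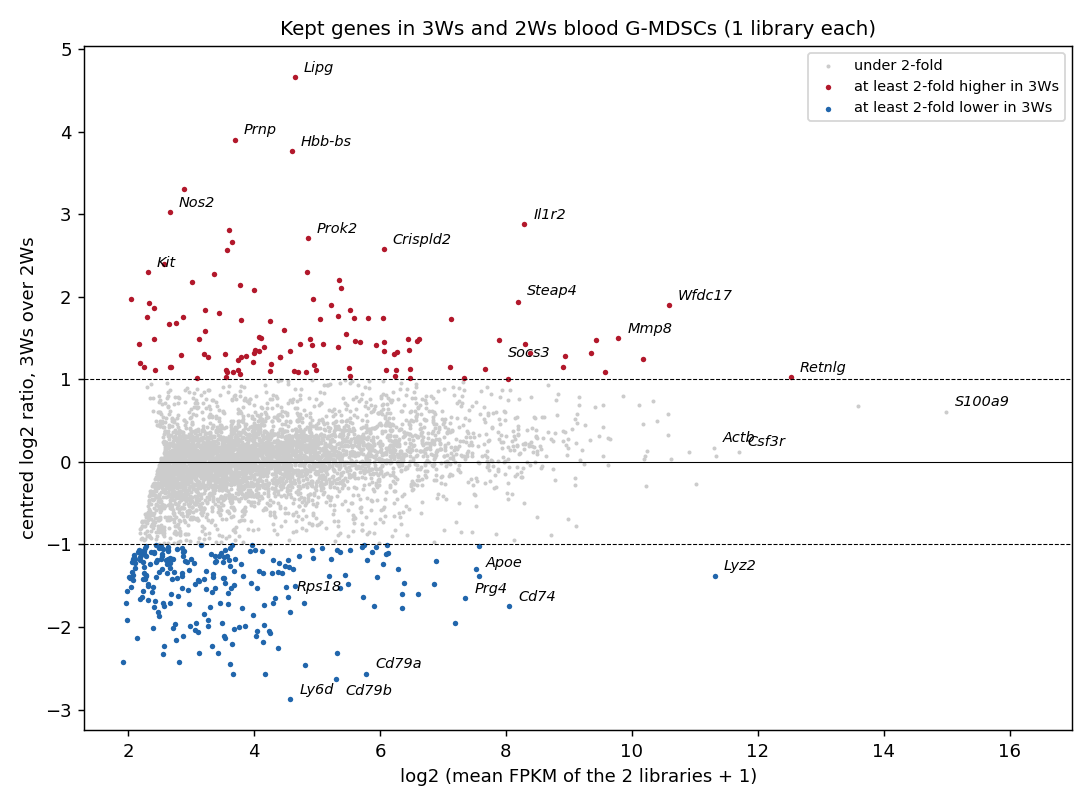
Centred log2 ratio of 3Ws over 2Ws (vertical axis) against the log2 of the mean FPKM of the 2 libraries plus 1 (horizontal axis) for the 5303 kept genes. Each point is 1 gene from 1 library a side, dashed lines mark 2-fold, and the 122 higher genes include several of high level, such as Retnlg and Wfdc17, while the 244 lower genes lie mostly at low levels.

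The genes that rose most between 2Ws and 3Ws were Lipg, Prnp, 2 of the 4 hemoglobin genes and Nos2. Lipg, which encodes endothelial lipase, had 46.8 FPKM in the 3Ws library and 1.12 FPKM in the 2Ws library, a 41.9-fold difference (95% interval 33.9 to 52.5, from approximate read numbers). Prnp, the gene of the prion protein, had 22.995 FPKM in the 3Ws library and 0.799 FPKM in the 2Ws library, which is 28.8-fold (95% interval 20.1 to 42.6). Both stood near their 2Ws level in the normal library, where Lipg had 1.49 FPKM and Prnp 1.11 FPKM. Crispld2, a secreted lipopolysaccharide-binding protein, had 111 FPKM in the 3Ws library and 20.1 FPKM in the 2Ws library. Kit, the stem cell factor receptor of progenitors and mast cells, had 7.08 FPKM in the 3Ws library and 0.84 FPKM in the 2Ws library. The mast cell and basophil list beside it held 15 genes, of which 13 stayed under 5 FPKM, and its summed level was 273 FPKM in the 3Ws library and 168 FPKM in the 2Ws library. Most of that sum was Hdc, the histamine-forming enzyme that neutrophils also express, with 260 FPKM in the 3Ws library and 154 FPKM in the 2Ws library. Whether mast cells took part in the Kit value was not tested.

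**Figure D2:**
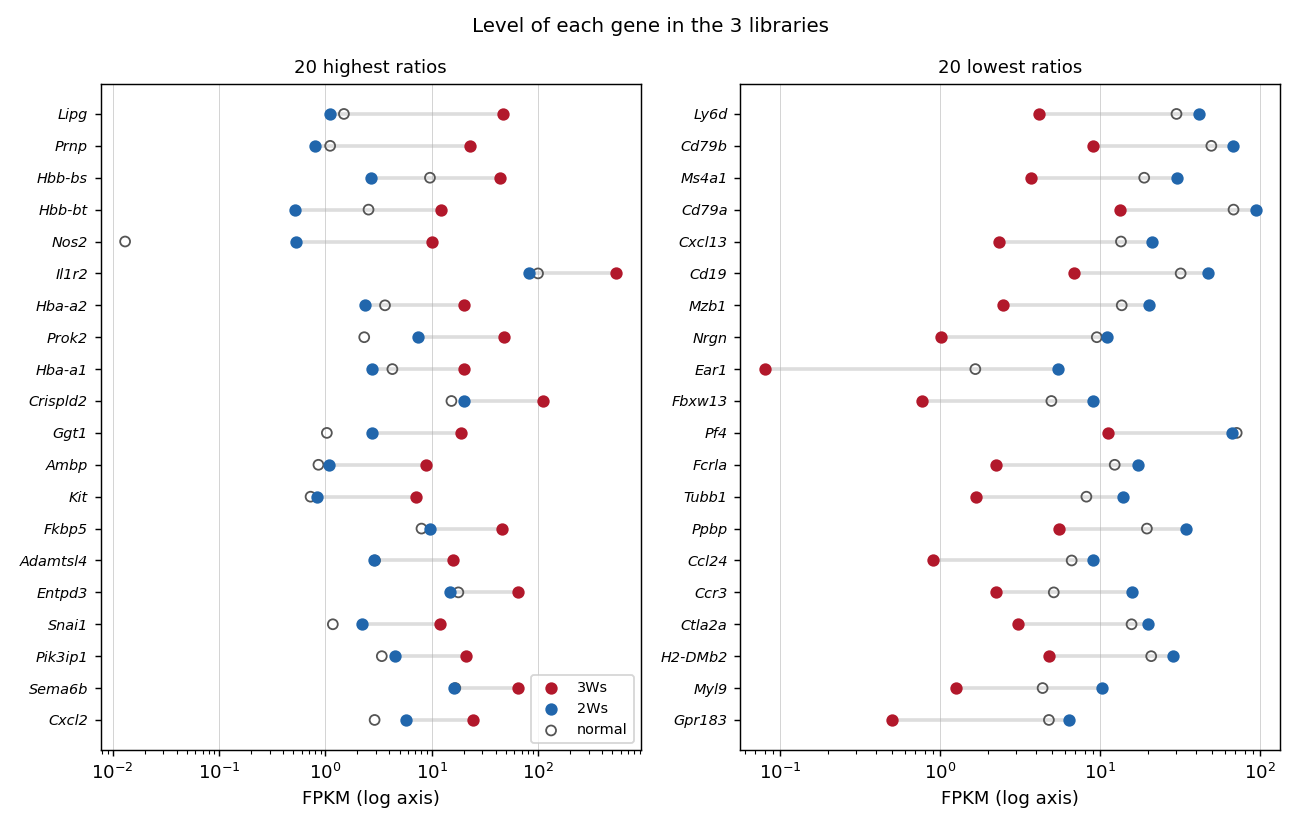
FPKM on a log axis in the 3Ws library (red), the 2Ws library (blue) and the normal library (open circles) for the 20 kept genes with the highest centred ratios (left) and the 20 with the lowest (right), among genes with at least 50 reads in 1 library. The grey bar joins 3Ws and 2Ws, and for most of the genes the normal library lies nearer to the 2Ws library than to the 3Ws library.

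Genes of the G-CSF receptor and STAT3 axis were among the higher ones. Of 21 kept genes on that list, 7 (33.3%, against 2.30% of all kept genes) were at least 2-fold higher in the 3Ws library and none was lower. The median centred ratio was 0.64, against 0.03 over all kept genes. The 29 kept genes of the neutrophil identity list had a similar median of 0.61, with 26 ratios above 0, and 3 (10.3%) were higher. Lists overlap in places. Il1r2, 1 of the 7, is also on the interleukin 1 and glucocorticoid lists given below, and Prok2 is also among the mediators linked to suppression. Prok2, which encodes prokineticin 2, a secreted factor of myeloid cells, had 48.2 FPKM in the 3Ws library and 7.44 FPKM in the 2Ws library, or 6.48-fold (95% interval 5.65 to 7.46). Its level in the normal library was 2.32 FPKM, lower than in either tumor library. Socs3, the feedback inhibitor of the G-CSF receptor, had 338 FPKM in the 3Ws library and 136 FPKM in the 2Ws library, or 2.48-fold (95% interval 2.41 to 2.56). Il4ra, the receptor chain for interleukins 4 and 13, had 136 FPKM in the 3Ws library and 54.7 FPKM in the 2Ws library. Lrg1, a glycoprotein of neutrophil granules, had 896 FPKM in the 3Ws library and 402 FPKM in the 2Ws library. Osm, the cytokine oncostatin M, had 58.1 FPKM in the 3Ws library and 31.3 FPKM in the 2Ws library. The receptor gene Csf3r had a centred ratio of 0.12. Stat3, whose ratio of 0.64 was the median of the list, did not pass 2-fold, with 79.9 FPKM in the 3Ws library and 57.1 FPKM in the 2Ws library.

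The stretches before the start of Socs3 and of Steap4, another higher gene, are shown because both hold the pattern TTCNNNGAA that STAT proteins bind, in capitals, where N is any base. Sequences are from RefSeq on GRCm38.p6, 5′ to 3′ on the strand of the gene, and stop short of any exon that GENCODE M21 gives the gene. That of Socs3 (chr11:117969452-117969616, minus strand) ends 86 bases before the RefSeq start, and that of Steap4 (chr5:7960222-7960456, plus strand) ends 16 bases before it. The Socs3 stretch lies within the span of the gene in GENCODE M21, which starts farther upstream, at 117970047.
Socs3: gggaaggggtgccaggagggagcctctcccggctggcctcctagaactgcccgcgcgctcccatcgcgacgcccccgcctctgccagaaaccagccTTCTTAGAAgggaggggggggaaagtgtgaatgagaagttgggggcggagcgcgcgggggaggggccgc
Steap4: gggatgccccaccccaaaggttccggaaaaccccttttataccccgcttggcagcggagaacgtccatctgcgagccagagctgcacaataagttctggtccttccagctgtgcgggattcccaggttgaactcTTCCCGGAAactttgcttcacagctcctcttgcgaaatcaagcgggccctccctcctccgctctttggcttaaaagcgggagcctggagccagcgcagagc
Steap4, a metalloreductase that takes part in iron uptake, had 452 FPKM in the 3Ws library and 132 FPKM in the 2Ws library, or 3.43-fold (95% interval 3.34 to 3.52), and 132 FPKM in the normal library. Of the 98 higher genes with a promoter in the reference (250 bases before to 50 bases after the start), 12 (12.2%) held TTCNNNGAA, which reads the same on either strand. The share was 8.57% of the 175 lower genes with a promoter, 7.79% of 4226 kept genes and 8.30% of all 32851 promoters. A match describes the letters in the window and no more.

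Arginine and nitric oxide metabolism split by enzyme. Nos2, the inducible nitric oxide synthase, had 10.1 FPKM in the 3Ws library and 0.53 FPKM in the 2Ws library, or 763 reads against 39, a 19.0-fold difference (95% interval 13.7 to 26.9). In the normal library it had 0.0131 FPKM. Arg1, arginase 1, had 13.2 FPKM in the 3Ws library and 3.47 FPKM in the 2Ws library, or 3.82-fold (95% interval 3.14 to 4.67). The normal library, with 9.12 FPKM of Arg1, lay between them, and with it in place of 2Ws the centred ratio of Arg1 was 0.68, under 2-fold. Arg2, the mitochondrial arginase, was far more abundant and moved little, with 88.8 FPKM in the 3Ws library and 72.3 FPKM in the 2Ws library. Ass1, which rebuilds arginine from citrulline, fell to 1.09 FPKM in the 3Ws library, against 5.31 FPKM in the 2Ws library. Over the 11 kept genes of this list the median centred ratio was 0.02, and it was −0.14 without centring.

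Of 25 kept mediators linked to suppression, 4 (16%, against 2.30% of all kept genes) were higher and none was lower, with a median of 0.44 and 21 ratios above 0. The higher ones were Nos2, Arg1, Prok2 and Wfdc17. Wfdc17, a small secreted protein with a protease inhibitor fold, had 2362 FPKM in the 3Ws library and 708 FPKM in the 2Ws library, and 472 FPKM in the normal library. Among the 4 members with ratios below 0, Tgfb1 had 21.4 FPKM in the 3Ws library and 38.1 FPKM in the 2Ws library, a centred ratio of −0.64. Ptgs2, the inducible prostaglandin synthase, had 5.23 FPKM in the 3Ws library and 11.1 FPKM in the 2Ws library, a centred ratio of −0.80. Neither passed 2-fold. Irf4, a transcription factor of lymphocytes and macrophages, fell to 1.34 FPKM in the 3Ws library, against 7.44 FPKM in the 2Ws library, or 112 reads against 604. It is also on the dendritic cell list, whose summed level was 63.7 FPKM in the 3Ws library and 190 FPKM in the 2Ws library, and the part of such cells in the Irf4 value was not tested.

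The interleukin 1 system gained its decoy receptor and its accessory chain. Il1r2, which binds interleukin 1 without signaling, had 543 FPKM in the 3Ws library and 81.8 FPKM in the 2Ws library, or 6.65-fold (95% interval 6.38 to 6.93), with 99.9 FPKM in the normal library. Il1rap, the accessory chain of interleukin 1 receptors, had 82.9 FPKM in the 3Ws library and 27.0 FPKM in the 2Ws library. The ligand Il1b was nearly level, with 1885 FPKM in the 3Ws library and 1947 FPKM in the 2Ws library. None of the other kept genes of this list reached 2-fold, and its median over 23 genes was 0.15, or −0.01 without centring.

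Il1r2 also belongs to the genes that glucocorticoids induce, and this list had one of the highest medians among the lists of neutrophil and pathway genes. Of its 15 kept genes, 4 (26.7%, against 2.30% of all kept genes) were higher and none was lower. The median was 0.67, and that of the neutrophil identity list was 0.61. Fkbp5, a chaperone partner of the glucocorticoid receptor and a standard readout of the hormone, had 45.9 FPKM in the 3Ws library and 9.71 FPKM in the 2Ws library, or 4.73-fold (95% interval 4.47 to 4.996, from approximate read numbers). Pik3ip1, an inhibitor of PI3 kinase, had 20.9 FPKM in the 3Ws library and 4.55 FPKM in the 2Ws library. Per1, a clock gene with a glucocorticoid-responsive promoter, had 36.5 FPKM in the 3Ws library and 14.6 FPKM in the 2Ws library, and Per2 had 26.6 FPKM in the 3Ws library and 14.5 FPKM in the 2Ws library, a centred ratio of 0.99. Of 7 kept clock genes, Per1 and Nfil3 (28.6%, against 2.30% of all kept genes) were higher and none was lower. The ratio of Nfil3, a leucine zipper repressor, was 0.97 without centring. Tsc22d3, the classical glucocorticoid-induced leucine zipper gene, lies on the X chromosome and was not among the kept genes, and it had 307 FPKM in the 3Ws library and 255 FPKM in the 2Ws library. The hour of blood collection is not given in the sources used here.

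Genes of glucose uptake, glycolysis and the response to low oxygen also had a median above 0. Of 34 kept genes, 5 (14.7%, against 2.30% of all kept genes) were higher and none was lower. Their median was 0.58, and that of the neutrophil identity list was 0.61. Slc2a1, the glucose transporter GLUT1, had 62.6 FPKM in the 3Ws library and 23.4 FPKM in the 2Ws library, or 2.67-fold (95% interval 2.51 to 2.85). Ankrd37, a target of hypoxia-inducible factors, had 9.97 FPKM in the 3Ws library and 2.63 FPKM in the 2Ws library. Egln3, a prolyl hydroxylase that both senses oxygen and answers to these factors, had 28.0 FPKM in the 3Ws library and 12.4 FPKM in the 2Ws library. P4ha1, a collagen prolyl hydroxylase, had 11.6 FPKM in the 3Ws library and 4.73 FPKM in the 2Ws library. Mif, a cytokine, had 24.9 FPKM in the 3Ws library and 11.8 FPKM in the 2Ws library. Of the glycolytic enzymes, Gapdh had 291 FPKM in the 3Ws library and 215 FPKM in the 2Ws library, and Pkm had 318 FPKM in the 3Ws library and 245 FPKM in the 2Ws library, both under 2-fold.

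The stretches before Ankrd37 (chr8:45999868-46000100, minus strand) and Egln3 (chr12:54203875-54204124, minus strand) are shown for the core ACGTG of the hypoxia response element, in capitals, from the same source and by the same rule. The stretch of Ankrd37 ends 18 bases before its RefSeq start. It lies within the span of the gene in GENCODE M21, which starts farther upstream, at 46005707.
Ankrd37: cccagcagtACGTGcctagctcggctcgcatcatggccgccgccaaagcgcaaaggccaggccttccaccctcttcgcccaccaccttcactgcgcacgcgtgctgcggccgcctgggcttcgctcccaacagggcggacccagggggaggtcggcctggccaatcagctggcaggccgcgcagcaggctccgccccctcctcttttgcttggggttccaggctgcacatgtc
Egln3: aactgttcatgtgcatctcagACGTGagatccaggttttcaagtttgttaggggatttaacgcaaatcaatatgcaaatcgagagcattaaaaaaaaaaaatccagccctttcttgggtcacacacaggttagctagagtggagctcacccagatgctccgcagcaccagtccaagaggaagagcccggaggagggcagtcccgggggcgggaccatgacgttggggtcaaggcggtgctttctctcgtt
On either strand, ACGTG stood in 31.6% of the promoters of higher genes, 23.4% of those of lower genes, 30.2% of those of kept genes and 19.6% of all promoters. The share in higher genes was thus near that of all kept genes.

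Granule genes were listed by the granule that holds their proteins. Of 24 kept genes of secondary and tertiary granules, 4 (16.7%, against 2.30% of all kept genes) were higher and none was lower. Their median was 0.35. Mmp8, neutrophil collagenase, had 1264 FPKM in the 3Ws library and 501 FPKM in the 2Ws library, or 2.52-fold (95% interval 2.48 to 2.56). Lcn2, which binds the iron carriers of bacteria, had 997 FPKM in the 3Ws library and 524 FPKM in the 2Ws library, and Retnlg, a resistin-like protein, had 7606 FPKM in the 3Ws library and 4188 FPKM in the 2Ws library. Lcn2 and Retnlg pass 2-fold only with centring, and without it their ratios were 0.93 and 0.86. Chil3, a chitinase-like protein, had 444 FPKM in the 3Ws library and 183 FPKM in the 2Ws library, but 339 FPKM in the normal library. Ngp, the neutrophilic granule protein, had 1197 FPKM in the 3Ws library and 1226 FPKM in the 2Ws library.

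Of 20 primary granule genes, 9 stayed under 5 FPKM, and the 11 kept genes had a median of −0.42. Without a filter the median was −0.16. The only lower genes were the 2 lysozyme genes (18.2%, against 4.60% of all kept genes). Lyz2 had 1301 FPKM in the 3Ws library and 3787 FPKM in the 2Ws library, a 2.91-fold lower level (95% interval 2.87 to 2.95), and 3742 FPKM in the normal library. Lyz1 had 10.2 FPKM in the 3Ws library and 31.0 FPKM in the 2Ws library. Lysozyme is also abundant in monocytes and macrophages, whose markers fell as well, as given below. Reads may be shared between these near-identical genes.

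Small inhibitors of proteases were found among the higher genes. The stefin A family are inhibitors of cysteine proteases whose near-identical genes may share reads. Of its 7 kept genes, 4 (57.1%, against 2.30% of all kept genes) were higher and none was lower. Their median was 1.04, or 0.88 without centring. Stfa2 had 56.6 FPKM in the 3Ws library and 16.3 FPKM in the 2Ws library, and Gm5483, whose ratio was 0.99 without centring, had 640 FPKM in the 3Ws library and 321.2 FPKM in the 2Ws library. Beside Wfdc17, its relatives Wfdc21, with 675 FPKM in the 3Ws library and 309 FPKM in the 2Ws library, and Wfdc18, with 12.5 FPKM in the 3Ws library and 4.06 FPKM in the 2Ws library, were higher. On the same list Serpinb2, an inhibitor of plasminogen activators that macrophages also make, fell to 7.93 FPKM in the 3Ws library, against 30.4 FPKM in the 2Ws library.

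Receptors for chemokines and bacterial products held both higher and lower genes. Over all kept genes, 2.30% were higher and 4.60% lower. Of 8 kept chemokine receptors 1 (12.5%) was higher and 3 (37.5%) were lower. Of 13 kept genes of Toll-like receptors and their partners 2 (15.4%) were higher and 3 (23.1%) lower. Of 16 kept C-type lectins 1 (6.25%) was higher and 2 (12.5%) were lower. In lists this small, 1 gene makes a large share. Of 11 kept receptors for other chemoattractants none was higher and 1 (9.09%) was lower. Cxcr1, a receptor of CXC chemokines, had 69.0 FPKM in the 3Ws library and 20.99 FPKM in the 2Ws library, and was the only 1 of 8 kept chemokine receptors to pass 2-fold upward. Cxcr2, the main receptor that draws neutrophils out of the marrow, had 1540 FPKM in the 3Ws library and 1031 FPKM in the 2Ws library, a centred ratio of 0.74. Cd14, the co-receptor for lipopolysaccharide, had 207 FPKM in the 3Ws library and 69.3 FPKM in the 2Ws library, and Tlr1 had 31.6 FPKM in the 3Ws library and 11.1 FPKM in the 2Ws library. Among the lower ones Ly86, a partner of the Toll-like receptor homolog Cd180, had 8.63 FPKM in the 3Ws library and 37.0 FPKM in the 2Ws library, and the lymphocyte receptor Gpr183 had 0.498 FPKM in the 3Ws library and 6.35 FPKM in the 2Ws library. The lower chemokine receptors were Ccr2, Ccr3 and Cxcr5. The lectin Clec4n, or dectin-2, had 55.1 FPKM in the 3Ws library and 23.02 FPKM in the 2Ws library. Cxcl2, a chemokine ligand of Cxcr2, had 24.3 FPKM in the 3Ws library and 5.73 FPKM in the 2Ws library. Cd101, a surface protein of mature neutrophils, had 117 FPKM in the 3Ws library and 186 FPKM in the 2Ws library, a centred ratio of −0.50 that did not pass 2-fold. The 19 kept genes of neutrophil maturity held 2 higher genes (10.5%), Mmp8 and Retnlg, and no lower one. Their median of 0.12 became −0.05 without centring.

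Of 26 kept transcription factors of granulopoiesis, 4 (15.4%, against 2.30% of all kept genes) were higher and 1 was lower, with a median of 0.18, or 0.02 without centring. The higher ones were Ets2, Id1, Id2 and Nfil3, and the lower one was Myc. Id1 and Id2, which block helix-loop-helix factors, both rose: Id2 had 59.5 FPKM in the 3Ws library and 19.0 FPKM in the 2Ws library, and Id1 had 47.1 FPKM in the 3Ws library and 19.1 FPKM in the 2Ws library. Xbp1, a factor of the unfolded protein response, had 122 FPKM in the 3Ws library and 52.5 FPKM in the 2Ws library. Its list of 28 kept genes held no other higher gene and had a median of −0.17. Myc fell to 1.51 FPKM in the 3Ws library, against 7.05 FPKM in the 2Ws library. Bcl2l1, which encodes the survival protein Bcl-xL, had 19.5 FPKM in the 3Ws library and 6.01 FPKM in the 2Ws library, and was the only 1 of 14 kept BCL2 family genes to pass 2-fold. Snai1, a zinc finger repressor, had 11.9 FPKM in the 3Ws library and 2.199 FPKM in the 2Ws library.

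**Figure D3:**
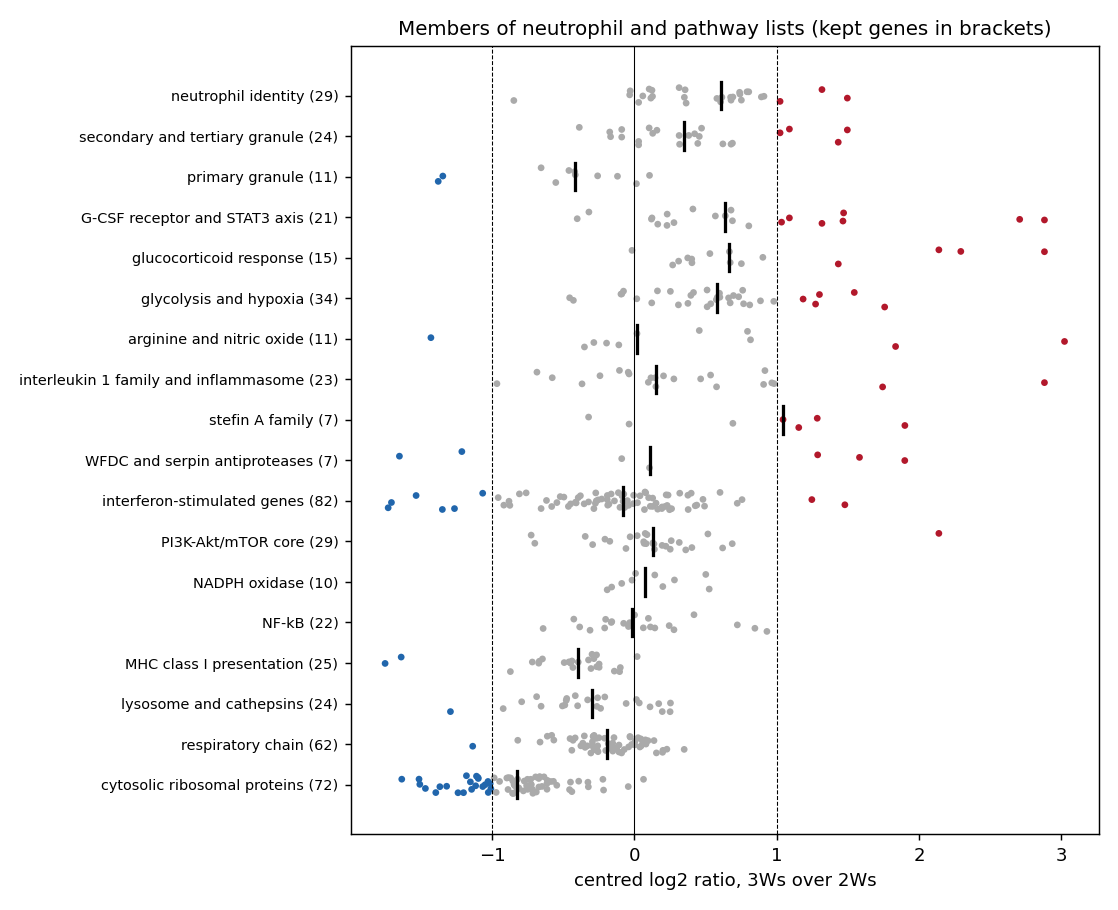
Centred log2 ratio of 3Ws over 2Ws (horizontal axis) for the kept members of 18 lists of neutrophil and pathway genes, 1 point a gene and 1 library a side, with a black bar at each median. Red points are at least 2-fold higher, blue points at least 2-fold lower and grey points neither, and the G-CSF and STAT3 list (median 0.64) and the ribosomal protein list (median −0.82) stand on opposite sides of 0.

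The interferon and PI3K-Akt/mTOR lists were also subjects of the study. Of 82 kept interferon-stimulated genes, 2 (2.44%, against 2.30% of all kept genes) were higher and 6 (7.32%, against 4.60%) were lower. Their median was −0.08, or −0.25 without centring, with 49 centred ratios below 0 and 33 above. The list holds genes that the study picked on these libraries. Rsad2, or viperin, had 56.7 FPKM in the 3Ws library and 90.1 FPKM in the 2Ws library, and Ifit1 had 37.4 FPKM in the 3Ws library and 49.3 FPKM in the 2Ws library. Ifit3 had 49.5 FPKM in the 3Ws library and 81.5 FPKM in the 2Ws library, and Ifit3b had 23.6 FPKM in the 3Ws library and 52.4 FPKM in the 2Ws library, a centred ratio of −0.96 that became −1.12 without centring. The normal library held more of each of these, with 188 FPKM of Rsad2, 136 FPKM of Ifit1, 239 FPKM of Ifit3 and 118 FPKM of Ifit3b. Against the normal library the median of the list was −0.70. The higher genes were Ifitm1, with 1570 FPKM in the 3Ws library and 740 FPKM in the 2Ws library, and Ifitm6. Among the lower ones Mndal, a DNA-binding protein, had 6.59 FPKM in the 3Ws library and 27.2 FPKM in the 2Ws library, and Ms4a4c, which is also on the monocyte list, had 3.71 FPKM in the 3Ws library and 16.2 FPKM in the 2Ws library. The summed level over the monocyte list was 1498 FPKM in the 3Ws library and 2079 FPKM in the 2Ws library, of which Tgfbi, a matrix protein, made up 566 FPKM in the 3Ws library and 540.3 FPKM in the 2Ws library. The receptor chain Ifnar1 had 34.7 FPKM in the 3Ws library and 33.1 FPKM in the 2Ws library.

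Of 29 kept genes of the PI3K-Akt/mTOR core, 1 (3.45%, against 2.30% of all kept genes), Pik3ip1, was higher and none was lower, with a median of 0.13, or −0.03 without centring. Akt1 had 98.4 FPKM in the 3Ws library and 105 FPKM in the 2Ws library. Mtor had 3.06 FPKM in the 3Ws library and 3.50 FPKM in the 2Ws library and Socs1 had 2.26 FPKM in the 3Ws library and 3.47 FPKM in the 2Ws library, both under the 5 FPKM limit. Cxcr3, a chemokine receptor gene on the X chromosome, had 1.66 FPKM in the 3Ws library and 2.09 FPKM in the 2Ws library. None of the 10 kept NADPH oxidase genes, the 22 of NF-kB, the 16 of cell death and NETosis or the 36 of the proteasome passed 2-fold in either direction. Of 15 kept cell cycle genes, Ccnd1 alone passed it, downward, and 43 of the 58 listed stayed under 5 FPKM.

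The lower genes were led by those of other blood cells. Of the 104 kept genes on the lists of other cell types, 62 were lower and 6 were higher, so that these lists held 62 of the 244 lower genes. Over all kept genes, 4.60% were lower and 2.30% higher. B cell genes came first. Of 20 kept, 16 (80%) were lower and none was higher, with a median of −2.01. Cd79a, a chain of the B cell receptor, had 13.3 FPKM in the 3Ws library and 94.2 FPKM in the 2Ws library, a 7.06-fold lower level (95% interval 6.29 to 7.94). Ms4a1, which encodes CD20, had 3.71 FPKM in the 3Ws library and 30.3 FPKM in the 2Ws library. Cxcr5, the receptor that guides B cells to follicles, had 4.97 FPKM in the 3Ws library and 13.8 FPKM in the 2Ws library. The summed level of the whole B cell list was 635 FPKM in the 3Ws library, 1623 FPKM in the 2Ws library and 1280 FPKM in the normal library, and none of its 34 genes was at 0 in either tumor library. Cd24a, which neutrophils also express, had 242 FPKM in the 3Ws library and 284 FPKM in the 2Ws library, and Cd37, a tetraspanin of leukocytes, had 160 FPKM in the 3Ws library and 170 FPKM in the 2Ws library. These nearly level genes made up most of the sum at 3Ws.

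Genes of MHC class II presentation, shared by B cells, dendritic cells and macrophages, were lower without exception among the 8 that were kept, with a median of −1.59. Cd74, the invariant chain, had 110 FPKM in the 3Ws library and 417 FPKM in the 2Ws library, and H2-Eb1 had 54.8 FPKM in the 3Ws library and 174 FPKM in the 2Ws library. The sum over this list was 268 FPKM in the 3Ws library and 953 FPKM in the 2Ws library. Of 6 kept dendritic cell genes 5 (83.3%, against 4.60% of all kept genes) were lower. Among them was Cd209a, with 1.48 FPKM in the 3Ws library and 9.85 FPKM in the 2Ws library. In the Gimap family of lymphocyte GTPases 4 of 5 kept genes (80%) were lower, with a median of −1.84.

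Macrophage and platelet genes fell too. Of 17 kept genes of tissue macrophages, 13 (76.5%, against 4.60% of all kept genes) were lower and 1 (5.88%, against 2.30%) was higher. The summed level of the whole list was 713 FPKM in the 3Ws library and 1668 FPKM in the 2Ws library. Prg4, which encodes lubricin, had 71.2 FPKM in the 3Ws library and 253 FPKM in the 2Ws library, and Apoe had 96.0 FPKM in the 3Ws library and 282 FPKM in the 2Ws library. Marco, a scavenger receptor, went the other way, with 41.8 FPKM in the 3Ws library and 16.9 FPKM in the 2Ws library. Of 14 kept platelet genes, 12 (85.7%) were lower, with a median of −1.52. The summed level of the whole platelet list was 516 FPKM in the 3Ws library and 674 FPKM in the 2Ws library. Most of that sum at 3Ws came from Plek, or pleckstrin, which leukocytes also express, with 397 FPKM in the 3Ws library and 308 FPKM in the 2Ws library. Pf4, platelet factor 4, had 11.1 FPKM in the 3Ws library and 66.8 FPKM in the 2Ws library, a 6.00-fold lower level (95% interval 5.002 to 7.25). Monocyte genes were less uniform: 7 of 27 kept (25.9%) were lower and none was higher, with a median of −0.54. Ccr2, the receptor that brings monocytes out of the marrow, had 6.29 FPKM in the 3Ws library and 17.5 FPKM in the 2Ws library. Of 8 kept eosinophil genes 5 (62.5%) were lower, among them the eotaxin receptor Ccr3, with 2.22 FPKM in the 3Ws library and 15.8 FPKM in the 2Ws library. The normal library, with 5.13 FPKM of Ccr3, was nearer to the 3Ws library here.

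Red cell genes made the exception. Of 6 kept erythroid genes 4 (66.7%, against 2.30% of all kept genes) were higher and none was lower, and all 4 were hemoglobin genes. Hbb-bs had 43.6 FPKM in the 3Ws library and 2.68 FPKM in the 2Ws library, a 16.3-fold difference (95% interval 11.5 to 23.8), and Hba-a2 had 19.9 FPKM in the 3Ws library and 2.36 FPKM in the 2Ws library. The normal library lay between them, with 9.62 FPKM of Hbb-bs. Klf1, Car1 and Rhag, genes of red cell precursors, were at 0 in the 3Ws library. Hemoglobin genes are near-identical in pairs and may share reads. T and NK cell genes were scarce, since 19 of 23 T cell genes and 19 of 20 genes of NK and cytotoxic cells stayed under 5 FPKM. The T cell list summed to 16.5 FPKM in the 3Ws library and 50.3 FPKM in the 2Ws library, and the NK list to 20.6 FPKM in the 3Ws library and 15.1 FPKM in the 2Ws library. Melanoma genes summed to 5.26 FPKM in the 3Ws library and 5.49 FPKM in the 2Ws library over 6 genes, none of which was kept. How far the share of other cells in the separated fraction took part in these differences was not tested, and the summed levels are given for that reason. Leaving out all genes on the lists of other cell types, 116 genes were higher and 182 lower. The Gimap family is not counted among those lists, and the 182 may hold further genes of other cells.

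**Figure D4:**
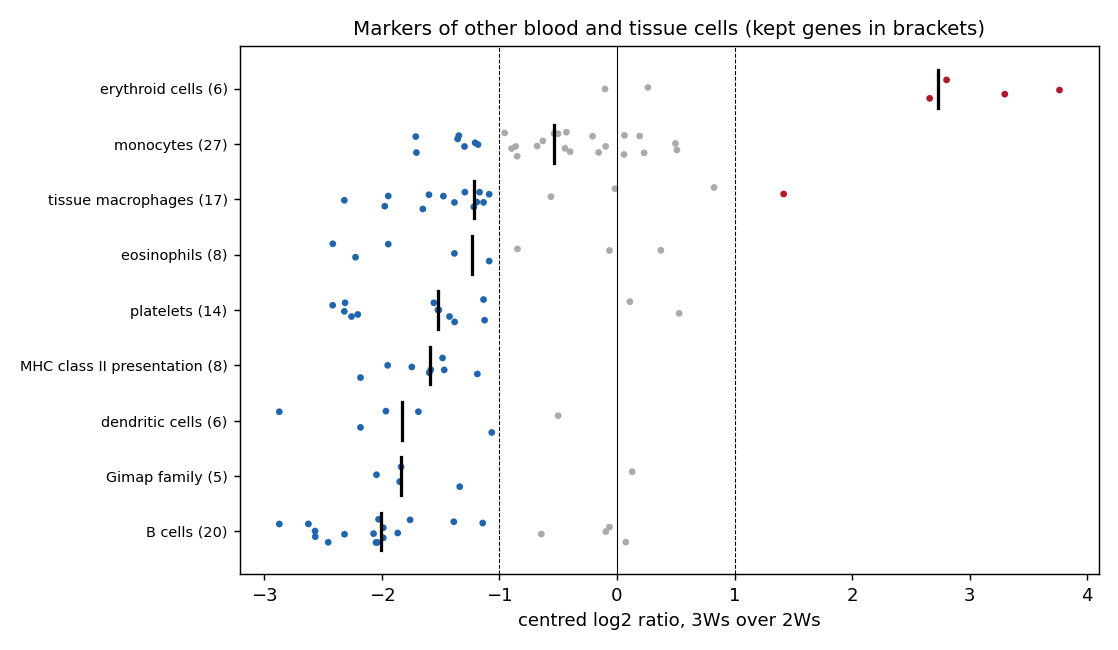
Centred log2 ratio of 3Ws over 2Ws (horizontal axis) for the kept members of 9 lists, those of other cells and the Gimap family. Each point is 1 gene from 1 library a side, with a black bar at each median and dashed lines at 2-fold. B cell genes have the lowest median (−2.01) and hemoglobin genes lie alone beyond 2-fold on the higher side apart from Marco.

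Cytosolic ribosomal protein genes were the largest group to move together. Of 72 kept, 22 (30.6%, against 4.60% of all kept genes) were lower and none was higher. Of the 72 centred ratios, 71 were below 0, with a median of −0.82. Rps18 had 9.33 FPKM in the 3Ws library and 34.9 FPKM in the 2Ws library, and Rpl12 had 9.85 FPKM in the 3Ws library and 33.7 FPKM in the 2Ws library. The abundant Rplp1 had 176 FPKM in the 3Ws library and 380 FPKM in the 2Ws library, a centred ratio of −0.95 that passed 2-fold without centring, at −1.11. Many of these genes have processed pseudogenes, so reads may be shared with copies. Ratios also varied with exon length and level. The median centred ratio was −0.10 in the fifth of kept genes with the shortest exons and 0.11 in the fifth with the longest. It was −0.17 in the fifth with the lowest mean level and 0.17 in the fifth with the highest. The 986 other kept genes with exon lengths in the middle range of the ribosomal protein genes (1275 to 2689 bases) had a median of −0.07, and 7.40% of them were lower, against 30.6% of the ribosomal protein genes. The part of RNA quality in these values was not tested.

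**Figure D5:**
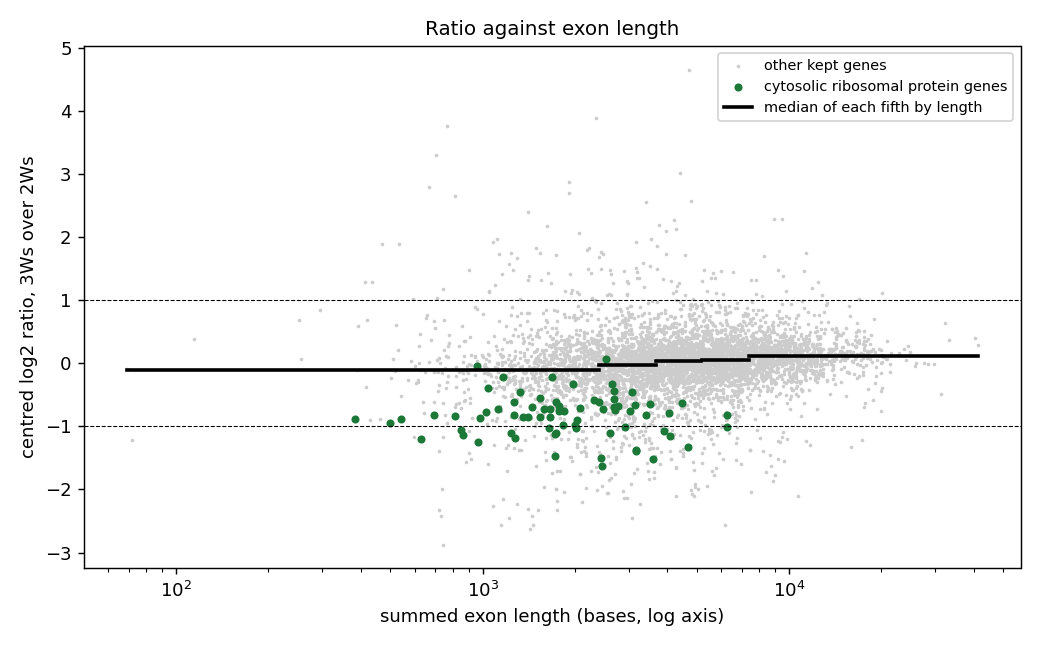
Centred log2 ratio of 3Ws over 2Ws (vertical axis) against summed exon length in bases on a log axis (horizontal axis) for the kept genes, 1 library a side, with cytosolic ribosomal protein genes in green. Black lines are the medians of 5 equal groups by length, from −0.10 at the short end to 0.11 at the long end, and nearly all green points lie below them.

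Other genes of protein handling and energy had medians that lay below 0 by less. The respiratory chain had a median of −0.19 over 62 kept genes, of which 1 (1.61%, against 4.60% of all kept genes) was lower. Lysosomal genes had a median of −0.30 over 24, of which 1 (4.17%) was lower, so neither share was above that of all kept genes. Psap, the precursor of the saposins, had 362 FPKM in the 3Ws library and 653 FPKM in the 2Ws library. MHC class I genes had a median of −0.39 over 25, of which 2 (8%, against 4.60%) were lower. These were H2-Q6 and H2-Q7, near-identical genes that may share reads. H2-Q6 had 24.1 FPKM in the 3Ws library and 93.7 FPKM in the 2Ws library, while B2m, the common light chain, had 1762 FPKM in the 3Ws library and 2370 FPKM in the 2Ws library. Integrin and adhesion genes held 7 lower genes among 24 (29.2%, against 4.60%). Some of these, such as Itgb3, with 3.32 FPKM in the 3Ws library and 12.001 FPKM in the 2Ws library, are chains of platelet integrins, and others, such as Itga6, with 4.82 FPKM in the 3Ws library and 21.3 FPKM in the 2Ws library, are found on several cell types.

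Redox and lipid genes changed singly and not as groups. Ggt1, which breaks down glutathione outside the cell, had 18.9 FPKM in the 3Ws library and 2.76 FPKM in the 2Ws library, or 6.83-fold (95% interval 5.77 to 8.13), and 1.03 FPKM in the normal library. Cat, or catalase, fell to 3.61 FPKM in the 3Ws library, against 14.4 FPKM in the 2Ws library. Over 25 kept genes of glutathione and redox metabolism the median was −0.04. Lipg was the only higher gene among 23 of lipid uptake and storage, and Scd1, a fatty acid desaturase, had 2.93 FPKM in the 3Ws library and 18.0 FPKM in the 2Ws library. Alox15, the lipoxygenase of eosinophils and peritoneal macrophages, had 53.8 FPKM in the 3Ws library and 235 FPKM in the 2Ws library.

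The other promoter motifs searched were the interferon-stimulated response element GAAANNGAA, the C/EBP pattern TTGCNNAA and the kappa B pattern GGNNTTTCC, on both strands, and matches of different motifs may overlap. GAAANNGAA stood in 12.2% of the promoters of higher genes, 18.3% of those of lower genes, 9.70% of those of kept genes and 8.56% of all promoters. TTGCNNAA stood in 17.3% of the promoters of higher genes, 16.6% of those of lower genes, 10.9% of those of kept genes and 10.8% of all promoters. GGNNTTTCC stood in 11.2% of the promoters of higher genes, 10.3% of those of lower genes, 7.81% of those of kept genes and 5.82% of all promoters.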

How the data were processed

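RNA of blood G-MDSCs was sequenced on an Illumina HiSeq, with 1 library each at 3Ws, at 2Ws and in normal mice. The authors deposited FPKM per Ensembl gene, and the submitters' processing notes name HISAT2 2.1.0, Bowtie2 2.2.3 and GRCm38. Neither the annotation used for counting nor its strand setting is named in the sources, so overlapping and antisense genes cannot be separated. Groups came from the sample descriptions.

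Genes were named and placed through GENCODE M21, which left 90 genes without a name. Reads were recovered as FPKM times summed exon length times the library total, and came out whole in all 3 libraries, to within 0.001 reads, for 20723 of 23378 genes above 0 (88.6%). For the others, read numbers and intervals are approximate. The pseudocount of 1 understates the change of low genes.

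The genes named were the 20 highest and 20 lowest kept genes with at least 50 reads in 1 library, for each list the 2 most abundant members and the 3 that differed most, and the genes that the study names. Genes of red cell precursors, Tsc22d3, Actb, the genes at the limits and further list members were chosen after their values were seen. The rule and the gene lists were chosen with earlier results of these data known, and a list is described by its counts and median, without a test.

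The steps were tested on simulated data with Python 3.11.15, numpy 2.4.6, pandas 2.3.3 and scipy 1.17.1, and figures were drawn with matplotlib 3.10.9. Alternatives were other scalings, pseudocounts, filters, fold limits and gene sets, and, added after the data were seen, the normal library in place of 2Ws.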

Additional observations from a re-analysis of the deposited data

How the results depend on the processing

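The counts of 122 higher and 244 lower genes stayed within 1.5 times under other scalings and pseudocounts, with a filter at 1 FPKM or none, with at least 50 reads, with all biotypes and chromosomes, and where the counting interval had to leave out no difference. At 1.5-fold, 388 genes were higher and 527 lower, and at 4-fold 20 were higher and 32 lower. With a filter at 10 FPKM, 145 genes were lower. The share of higher genes among those past 2-fold was 33.3%, against 22.3% without centring and 21.7% relative to Actb. With the normal library in place of 2Ws, an alternative chosen after seeing the data and one that keeps the sex-linked pattern alike on both sides, 166 genes were higher and 294 lower. Of 266 named genes, 255 kept their side of 2-fold without centring and 239 did so against the normal library. The median of the mast cell and basophil list, 1.60 over 2 kept genes, became −0.21 without a filter. That of the progenitor list, 0.29 over 2 kept genes, became −0.43 with a filter at 1 FPKM, −1.71 at 10 FPKM and −0.084 without one. These lists change their members with the filter. No paired analysis was possible because each group has 1 library. Limits are the single library a side, the sex-linked difference and the genes of other cells. The lists of other cell types held 62 of the 244 lower genes, and 125 were on any list. Genes of other cells outside those lists, such as the Gimap family, are not in the 62. Of the 5303 kept genes, 5296 had at least 50 reads in 1 library, but the 5 FPKM limit largely ensures this, so it says little on depth. Of the 244 lower genes, 99 were under 10 FPKM in the 2Ws library.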

Other observations

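Surface receptors of lymphocytes and monocytes gave further lower genes beyond those of the report. Cd180, a homolog of Toll-like receptors, had 2.74 FPKM in the 3Ws library and 9.68 FPKM in the 2Ws library. Of 8 kept Fc receptor genes 3 (37.5%, against 4.60% of all kept genes) were lower and none was higher. Fcmr, the receptor for IgM, had 1.89 FPKM in the 3Ws library and 11.8 FPKM in the 2Ws library. Of 7 kept Ms4a genes 3 (42.9%) were lower, among them Ms4a6c, with 4.83 FPKM in the 3Ws library and 14.1 FPKM in the 2Ws library. The summed levels of B cell and monocyte genes given in the report moved the same way, and their part in these values was not tested.

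Among 10 kept chemokine ligands, 4 (40%, against 4.60% of all kept genes) were lower and 1 (10%, against 2.30%), Cxcl2, was higher. Cxcl13, which draws B cells, had 2.34 FPKM in the 3Ws library and 21.1 FPKM in the 2Ws library, and the normal library had 13.5 FPKM. Ier3, an immediate early gene, had 98.4 FPKM in the 3Ws library and 32.3 FPKM in the 2Ws library, and Tnfsf9, the ligand of the costimulatory receptor CD137, had 8.28 FPKM in the 3Ws library and 2.26 FPKM in the 2Ws library. The 11 measured genes of the mitochondrial genome had a median centred ratio of −0.61 and summed to 4768 FPKM in the 3Ws library and 6940 FPKM in the 2Ws library. Cybb, the X-linked catalytic chain of the phagocyte oxidase, had 51.8 FPKM in the 3Ws library and 97.6 FPKM in the 2Ws library.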
